A study of Homo sapiens with 6 samples.

Results

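The mesenchymal, substrate-adherent (S-type) state of neuroblastoma cells was followed through 10 marker genes: VIM, CALD1, TAGLN, FN1, YAP1, WWTR1, CD44, TGFB1, SNAI2 and PRRX1. They are a named set, with no threshold on values in the rule, and all 10 were found among the 61860 genes of the deposited table. The 6 RNA-seq libraries came from the neuroblastoma line SH-SY5Y, an established human cell line, after differentiation with retinoic acid. All cells were then held for 24 h in insulin at 100 nM and D-glucose at 30 mM, which is used to make them insulin resistant (IR). IR control (3 libraries) had no further treatment named in the labels, and IR+Oligonol (3 libraries) also received Oligonol, a lychee-derived polyphenol preparation, at 500 ng/mL for 24 h. Cells without high insulin and glucose were not analysed here. The labels do not say whether replicates were separate cultures, so p-values cover only the differences among the deposited libraries, which may be technical.

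Neuroblastoma cells are known to occupy a noradrenergic, neuroblast-like state or a mesenchymal state, and to pass between them. The mesenchymal state is known for vimentin filaments, a fibronectin-rich matrix, actin stress fibres and resistance to chemotherapy, and is held by transcription factors such as PRRX1 and by the coactivators YAP and TAZ. TGF-beta signalling and the Snail family are known to drive a like change, the epithelial-mesenchymal transition (EMT), in other cells.

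Estimated counts summed to 22738203 to 32209583 in the control libraries and 19457923 to 20912945 in the Oligonol libraries, of which protein-coding genes held 6.24 to 6.83% and 10.0 to 12.3%. Most of the totals thus lay outside protein-coding genes. The read equivalents (estimated reads) behind all protein-coding genes were 5196982 to 6398467 in controls and 5212940 to 5507258 with Oligonol. Levels are given as CPM, estimated counts scaled to library size after TMM normalisation (which sets the bulk of genes equal between libraries), and these are per transcript length. In bulk RNA, fewer cells of a type and less RNA per cell cannot be told apart.

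The markers did not move together. Of 10, 8 had enough counts for testing. With Oligonol CALD1 and CD44 were higher and TAGLN was lower (adjusted p under 0.05, edgeR), while VIM, FN1, WWTR1, TGFB1 and SNAI2 did not pass. YAP1 and PRRX1 lay below the count filter. These calls depended on the scaling and on GC content. Library totals alone called 6 markers higher and 0 lower, against 11293 of all 16574 tested genes higher and 37 lower. Removal of the GC trend left 0 markers called by edgeR, with 5 of 8 at an unadjusted p under 0.05. Of 16200 genes in that fit, 883 were called and 4447 had an unadjusted p under 0.05. Under TMM scaling with the GC trend kept, the 3 called of 8 stand against 48.9% of all 16574 tested genes called in either direction. The 2 higher stand against 26.0% called higher and the 1 lower against 23.0% called lower, so the share called among the markers was no higher than that of genes at large. Their median log2 fold change was -0.10, against 0.15 for all tested genes. By library, groups did not overlap for 4 of the 8 tested markers, 2 higher (background 33.8%) and 2 lower (background 28.8%), against 62.6% of tested genes in either direction. The plot of levels by library shows this split.

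**Figure D1:**
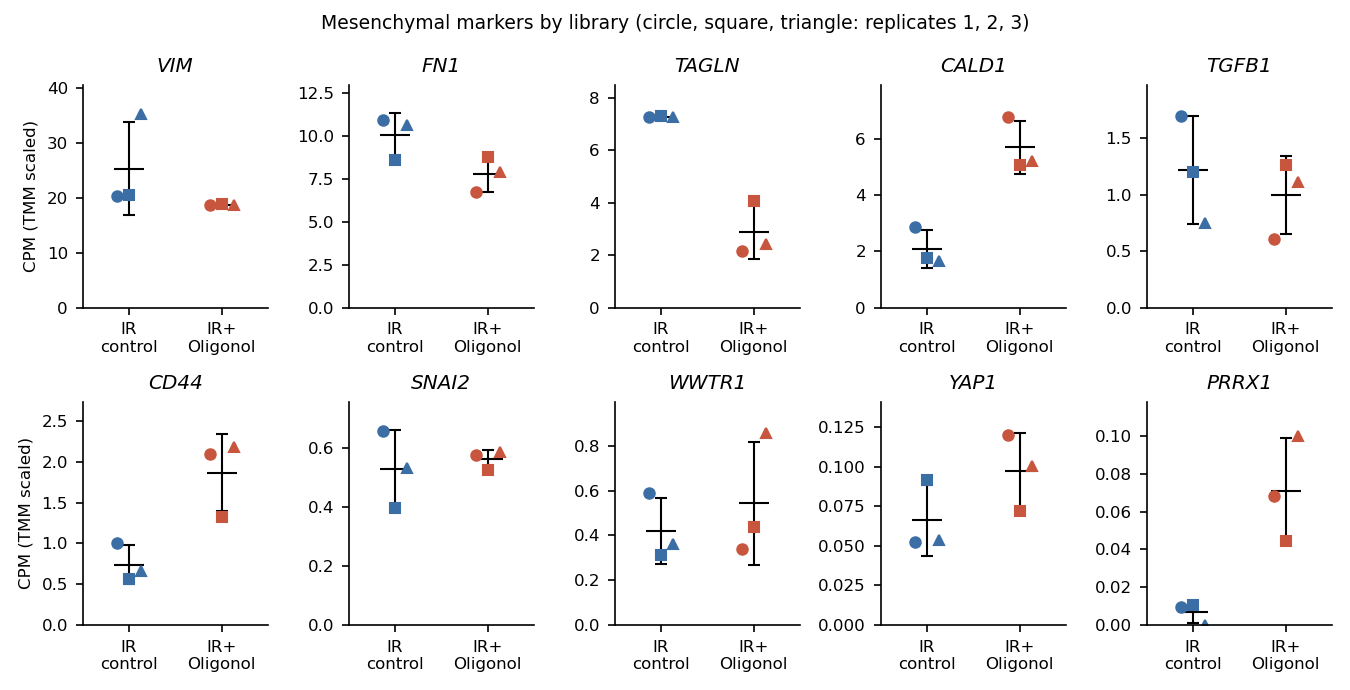
Level of each marker in CPM after TMM scaling (y axis, linear from 0, own scale per gene) in the 3 IR control (blue) and 3 IR+Oligonol (red) libraries, with the mean and SD in black. CALD1 and CD44 lie higher and TAGLN lower in every Oligonol library, while FN1, TGFB1, SNAI2, WWTR1 and YAP1 overlap between groups. VIM also lies lower and PRRX1 higher in every Oligonol library, but VIM was not called and PRRX1 lay below the count filter.

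The label was checked against the levels. VIM and FN1 were abundant, while PRRX1, a core mesenchymal factor, was close to 0, and YAP1 was low. In controls VIM lay above 97.3% of 19862 protein-coding genes, FN1 above 92.0%, TAGLN above 88.8%, CALD1 above 70.4% and PRRX1 above 15.1%. Noradrenergic transcription factors were expressed in the same libraries: PHOX2A was 79.8 ± 10.4 CPM in controls and 45.1 ± 15.8 with Oligonol, HAND2 39.2 ± 8.06 and 25.3 ± 3.27, and GATA3 4.86 ± 1.62 and 4.78 ± 0.162. DBH, which makes noradrenaline, was 16.6 ± 4.20 and 10.8 ± 2.01 CPM. TH, the first enzyme of that pathway, reached at most 0.116 CPM. PHOX2A, HAND2, GATA3 and DBH were not called in either direction by edgeR under TMM scaling.

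In order of level in controls the markers ran VIM, FN1, TAGLN, CALD1, TGFB1, CD44, SNAI2, WWTR1, YAP1 and PRRX1. From CALD1 to WWTR1 each overlapped its neighbour in range over the libraries, while VIM, FN1, TAGLN and CALD1 did not overlap one another. With Oligonol CALD1 moved to the third place, overlapping FN1, and CD44 moved above TGFB1. VIM made up 53.0% of the summed CPM of the 10 in controls and 47.7% with Oligonol, while CALD1 made up 4.39 and 14.5% and TAGLN 15.2 and 7.38%.

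CALD1 (ENSG00000122786; GRCh38.p13 chromosome 7, 134744252 to 134970729) encodes caldesmon, which binds actin, tropomyosin and calmodulin and restrains myosin. It stood at 2.86, 1.76 and 1.66 CPM in IR control libraries 1, 2 and 3 and at 6.78, 5.08 and 5.22 in the Oligonol libraries. The lowest Oligonol library was above the highest control. The means were 2.09 ± 0.665 and 5.69 ± 0.940 CPM, a log2 fold change of 1.45 (SE 0.25, adjusted p = 0.00774 by edgeR's quasi-likelihood test). CALD1 rested on 69.7 to 119.9 read equivalents in controls and 248.5 to 369.2 with Oligonol, taken at its median annotated transcript length. At its longest these were 429.4 to 738.4 and 1531 to 2260.7.

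CD44 (ENSG00000026508; chromosome 11, 35138882 to 35232402) encodes the hyaluronan receptor that links the matrix to the cortical cytoskeleton. It stood at 1.00, 0.560 and 0.660 CPM in the control libraries and at 2.10, 1.32 and 2.18 with Oligonol. The groups did not overlap, and Oligonol library 2 was the lowest of its group. The means were 0.741 ± 0.234 and 1.87 ± 0.473 CPM, a log2 fold change of 1.32 (SE 0.31, adjusted p = 0.0128 by edgeR). It rested on 18.1 to 34.4 read equivalents in controls and 52.8 to 96.2 with Oligonol at its median transcript length. At its longest these were 184.4 to 350.9 and 539 to 982.3. CD44 lost its call when IR control 2 (1.08, adjusted p = 0.0660), IR control 3 (1.13, 0.0681), Oligonol 1 (1.23, 0.0589) or Oligonol 3 (1.19, 0.0627) was left out.

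TAGLN (ENSG00000149591; chromosome 11, 117199370 to 117207464) encodes transgelin (SM22-alpha), an actin-bundling protein of smooth muscle and fibroblasts and a classical target of serum response factor (SRF). It stood at 7.27, 7.28 and 7.28 CPM in the control libraries and at 2.18, 4.08 and 2.43 with Oligonol. All Oligonol libraries were below all controls, with library 2 the nearest to them. The means were 7.28 ± 0.00896 and 2.90 ± 1.03 CPM, a log2 fold change of -1.34 (SE 0.25, adjusted p = 0.00844 by edgeR). With library totals in place of TMM it stood at -0.02 (adjusted p = 0.929), so its fall is relative to the bulk of genes, whose median that scaling moved from 0.15 to 1.53, whereas CALD1 and CD44 were higher under both (2.83 and 2.72 by totals).

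Caldesmon and transgelin both bind actin filaments, and their ratio within a library does not depend on the scaling. The log2 ratio of CALD1 to TAGLN took the values -1.35, -2.05 and -2.13 under IR control and 1.64, 0.32 and 1.10 under IR+Oligonol. TAGLN was thus the more abundant in all 3 controls and CALD1 in all 3 Oligonol libraries. The ratio is not free of GC content, which was 46.7% for CALD1 and 58.6% for TAGLN. Protein-coding genes of like GC had median log2 fold changes of 0.61 and -0.79. The part of GC content in the ratio was not tested. Leaving out IR control 3 ended the calls of CALD1 (1.22, adjusted p = 0.0510) and TAGLN (-1.42, adjusted p = 0.0515). By edgeR 0 markers then passed, with 3 at an unadjusted p under 0.05. Of 20071 genes tested without that library, 782 passed and 8500 had an unadjusted p under 0.05.

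**Figure D2:**
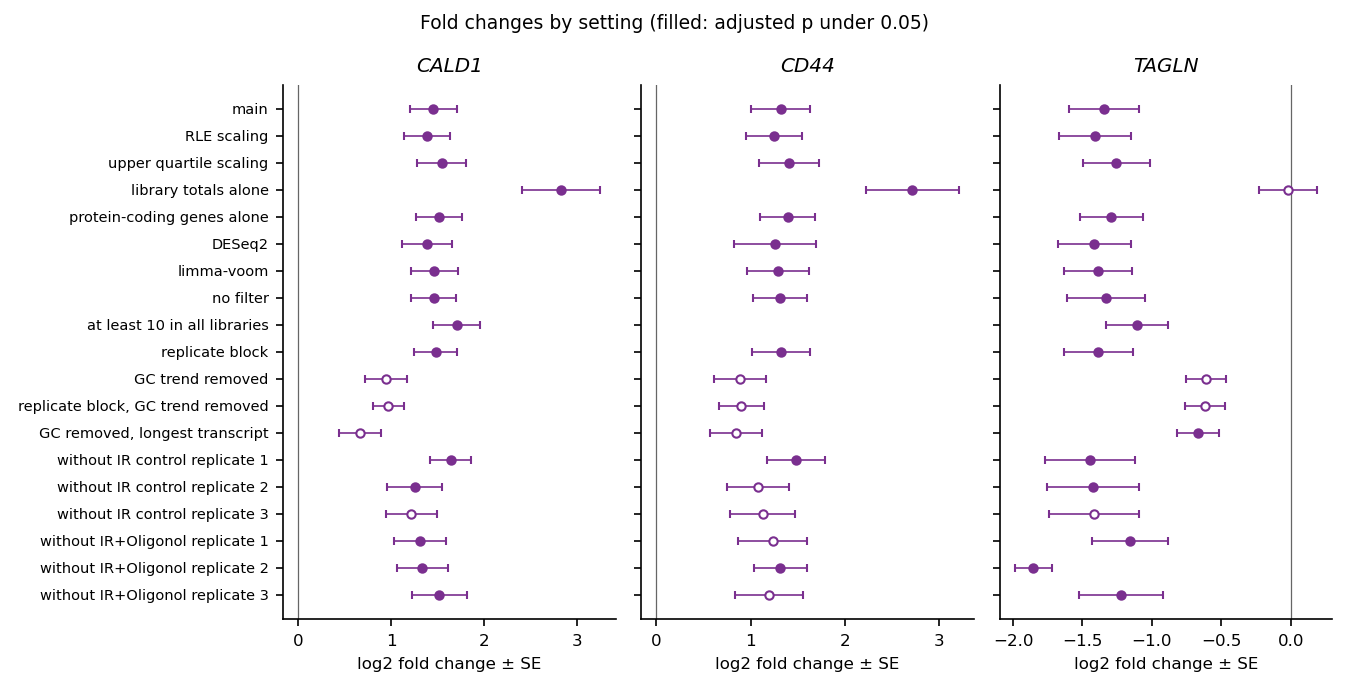
Log2 fold change with its SE (x axis) of CALD1, CD44 and TAGLN under each setting (y axis), filled where the adjusted p was under 0.05. CALD1 and CD44 stay above 0 and TAGLN below 0 in each setting shown, TAGLN reaching -0.02 with library totals alone, and of the 3 settings shown with the GC trend removed, the only call is that of TAGLN with the GC of the longest transcript.

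Promoter sequences are shown for CALD1 and CD44, the markers that were higher, as the 250 bases before the gene start. The search took 12 such starts from RefSeq (GRCh38.p14) for 8 of the markers. TAGLN had no start there, and SNAI2 was left out of the search. The windows were searched on both strands for the binding motif of TEAD, the DNA-binding partner of YAP and TAZ (GGAATG), for the Snail and ZEB E-box (CAGGTG) and for the CArG box of SRF, which do not overlap one another here. Capitals mark the TEAD motif on either strand. CALD1 has 4 starts, of which those with the motif are given.
CALD1, chr7:134745217-134745466, plus strand: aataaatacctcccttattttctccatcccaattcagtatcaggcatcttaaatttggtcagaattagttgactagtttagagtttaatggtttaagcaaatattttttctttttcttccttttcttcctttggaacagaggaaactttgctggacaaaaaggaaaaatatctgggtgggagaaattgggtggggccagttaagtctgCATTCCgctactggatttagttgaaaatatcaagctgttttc
CALD1, chr7:134779384-134779633, plus strand: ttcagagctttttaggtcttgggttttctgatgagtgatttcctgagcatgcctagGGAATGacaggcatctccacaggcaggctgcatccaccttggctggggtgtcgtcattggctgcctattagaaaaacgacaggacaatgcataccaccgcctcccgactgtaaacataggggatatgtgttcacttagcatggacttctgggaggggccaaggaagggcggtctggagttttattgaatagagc
CD44, chr11:35138921-35139170, plus strand: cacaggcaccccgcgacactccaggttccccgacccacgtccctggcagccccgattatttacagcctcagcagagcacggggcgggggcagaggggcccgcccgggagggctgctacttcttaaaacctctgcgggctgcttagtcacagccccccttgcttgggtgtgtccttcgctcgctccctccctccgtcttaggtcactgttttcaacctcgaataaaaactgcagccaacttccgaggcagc
The TEAD motif stood in 3 of the 12 windows, both of those CALD1 starts and that of YAP1, and in 11.9% of 35116 windows of all genes. The E-box and the CArG box, which stood in 17.5 and 1.16% of all windows, were in none of the 12. A match is a description of letters and not a bound site, and which CALD1 start was in use cannot be read from gene-level values.

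VIM (ENSG00000026025; chromosome 10, 17228241 to 17237593) encodes vimentin, the intermediate filament of mesenchymal cells. It stood at 20.3, 20.4 and 35.1 CPM in the control libraries and at 18.7, 18.8 and 18.6 with Oligonol. Every Oligonol library was below every control, but only IR control 3 stood far from them. The means were 25.3 ± 8.52 and 18.7 ± 0.0853 CPM, and the log2 fold change of -0.44 (SE 0.27) did not pass (adjusted p = 0.201 by edgeR). Without IR control 3 it was -0.21 (adjusted p = 0.498).

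FN1 (ENSG00000115414; chromosome 2, 215360440 to 215436073) encodes fibronectin, the matrix glycoprotein that integrins bind. It stood at 11.0, 8.65 and 10.7 CPM in controls and at 6.73, 8.80 and 7.91 with Oligonol. The groups overlapped through IR control 2 and Oligonol 2. The means were 10.1 ± 1.26 and 7.82 ± 1.04 CPM, and the log2 fold change was -0.37 (SE 0.19, adjusted p = 0.139 by edgeR). Without Oligonol 2 FN1 was called lower (-0.66, adjusted p = 0.0257), and VIM, FN1 and TGFB1 turned positive with library totals alone.

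TGFB1 (ENSG00000105329; chromosome 19, 41301587 to 41353922) encodes the ligand TGF-beta 1, which cells store in a latent form in the matrix. It stood at 1.70, 1.20 and 0.753 CPM in controls and at 0.605, 1.26 and 1.11 with Oligonol, so the groups overlapped. The means were 1.22 ± 0.474 and 0.993 ± 0.345 CPM (log2 fold change -0.32, SE 0.38, adjusted p = 0.504 by edgeR).

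SNAI2 (ENSG00000019549; chromosome 8, 48917598 to 48921740) encodes Slug, a zinc-finger repressor of the Snail family that acts in neural crest migration. It stood at 0.657, 0.397 and 0.532 CPM in controls and at 0.575, 0.526 and 0.586 with Oligonol. The Oligonol values lay inside the control range (log2 fold change 0.12, SE 0.29, adjusted p = 0.782 by edgeR).

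WWTR1 (ENSG00000018408; chromosome 3, 149517235 to 149736714) encodes TAZ, and YAP1 (ENSG00000137693; chromosome 11, 102110447 to 102233424) its paralog YAP, the coactivators that the Hippo kinases keep out of the nucleus. WWTR1 stood at 0.589, 0.312 and 0.361 CPM in controls and at 0.338, 0.436 and 0.856 with Oligonol, with only Oligonol 3 above the controls (log2 fold change 0.37, SE 0.45, adjusted p = 0.519 by edgeR). YAP1 was at 0.0525, 0.0919 and 0.0538 CPM in controls and 0.120, 0.0723 and 0.100 with Oligonol, overlapping between groups (exact 2-sided permutation p = 0.2, where 3 against 3 cannot go below 0.1). YAP1 values came to 4.9 to 8.0 read equivalents in controls and 7.8 to 14.4 with Oligonol at its median transcript length, or 17.2 to 28.5 and 27.7 to 50.9 at its longest. Within a library the log2 ratio of YAP1 to WWTR1 was -2.67 ± 0.866 in controls and -2.39 ± 0.819 with Oligonol, so TAZ mRNA was the more abundant in all 6 libraries.

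PRRX1 (ENSG00000116132; chromosome 1, 170662728 to 170739421) encodes a paired-type homeodomain factor known to push neuroblastoma cells toward the mesenchymal state. It was at 0.00954, 0.0104 and 0 CPM in controls and at 0.0681, 0.0447 and 0.100 with Oligonol. Each Oligonol library was above each control, but on few reads. At the longest transcript length these values were 0 to 2.5 read equivalents in controls and 13.5 to 33.3 with Oligonol, and at the median length 0 to 0.2 and 1.3 to 3.2. An exact 2-sided permutation test gave p = 0.1, the smallest that 3 against 3 can give. With no filter edgeR's adjusted p for PRRX1 was 0.143.

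GC content moved with the fold changes of all genes, so each marker was set beside protein-coding genes of like GC, in 10 equal bins. CALD1 (46.7% GC over its transcripts) and CD44 (47.5%) lay in a bin whose median log2 fold change was 0.61 and in which 43.6% of genes were called higher. Their values exceeded that median by 0.84 and 0.71, above the bin's upper decile (1.20). TAGLN (58.6%) and TGFB1 (58.0%) lay in a bin with a median of -0.79, in which 62.9% were called lower. TAGLN was 0.56 below that median and under the bin's lower decile (-1.21), and TGFB1 was 0.46 above it. SNAI2 (42.2%), though not called, was 0.89 below its bin's median of 1.01 and under that bin's lower decile (0.27). FN1 (49.9%), also not called, was 0.67 below its bin's median of 0.30. At -0.371 it lay just under that bin's lower decile (-0.363). VIM (52.2%) and WWTR1 (52.8%) shared a bin with a median of -0.10.

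**Figure D3:**
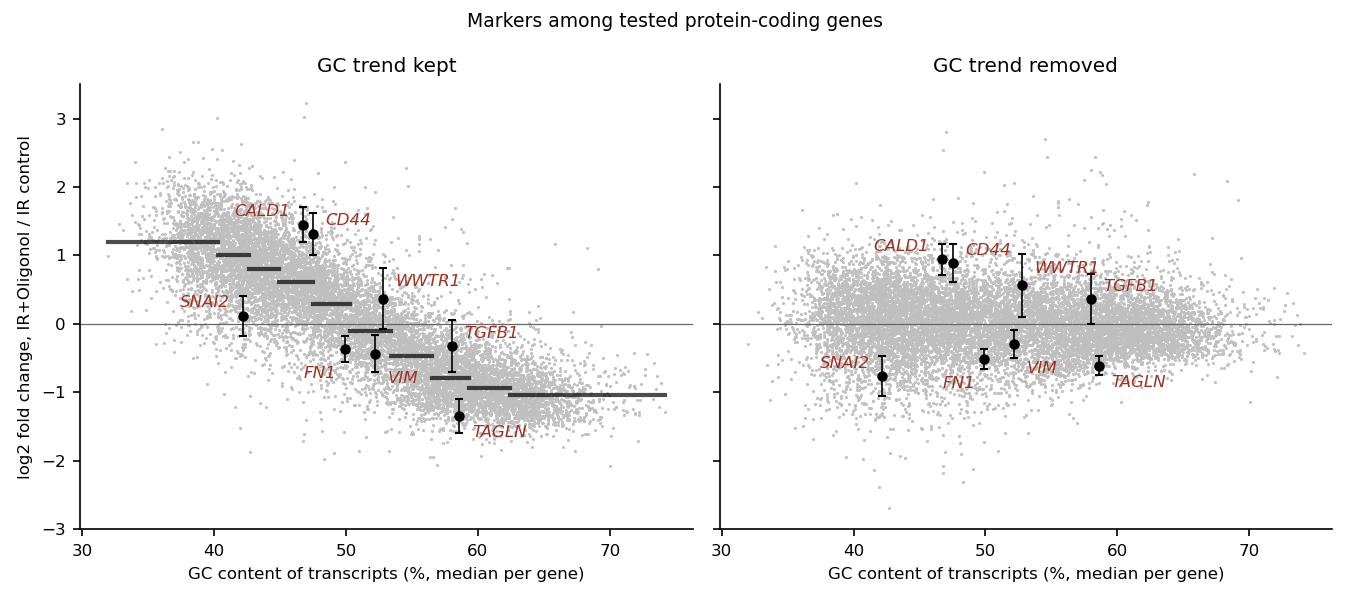
Log2 fold change of IR+Oligonol against IR control (y axis) by transcript GC content in percent (x axis) for tested protein-coding genes (grey), with the 8 tested markers and their SE (black) and the bin medians (horizontal bars), before (left) and after (right) removal of each library's GC trend. CALD1 and CD44 lie above and TAGLN, FN1 and SNAI2 below genes of like GC.

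With each library's GC trend removed, CALD1 stood at 0.94 (SE 0.23, adjusted p = 0.0601), CD44 at 0.89 (SE 0.28, adjusted p = 0.0980) and TAGLN at -0.61 (SE 0.14, adjusted p = 0.0552) by edgeR. FN1 stood at -0.51 (adjusted p = 0.0866), VIM at -0.29 (0.404) and WWTR1 at 0.56 (0.469). SNAI2 turned from 0.12 to -0.77 (adjusted p = 0.149) and TGFB1 from -0.32 to 0.36 (0.559). In that fit 0 of 8 markers passed, against 5.45% of 16200 genes called (2.89% higher, 2.56% lower). An unadjusted p under 0.05 was reached by 5 of the 8 markers and by 4447 of the genes. The transcripts of a marker differ in GC, from 31.6 to 53.5% for CALD1 and 40.3 to 68.4% for WWTR1, so the correction depends on which is expressed. With the GC of the longest transcript (42.2% for FN1, 57.2% for TAGLN), FN1 (-1.10, adjusted p = 0.0351) and TAGLN (-0.67, adjusted p = 0.0435) were called lower, CALD1 (0.66, adjusted p = 0.103) was not called, and WWTR1 turned to -0.47 (adjusted p = 0.532).

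Related genes were counted in lists that leave out the 10 markers. All counts are by edgeR's test over all genes under TMM scaling, and with library totals alone no gene of any of these lists was called lower. Some genes stand in more than 1 list. Leaving aside markers of other cell types, each of the 8 lists held genes called in both directions. The counts are to be read against 26.0% of all tested genes called higher and 23.0% lower, or 2.89 and 2.56% with the GC trend removed. They also moved with single libraries, and the numbers called are given for each list without IR control 1, 2 and 3, Oligonol 1 and Oligonol 3, in that order, since over all genes each of these lowered the calls. Without Oligonol 2 the calls rose over all genes, to 4576 higher and 4916 lower. Higher and lower calls were then 8 and 6 for the Hippo pathway, 2 and 6 for YAP and TAZ targets, and 5 and 10 for TGF-beta. They were 4 and 3 for EMT genes, 4 and 5 for mesenchymal factors, and 3 and 13 for actin genes. For the matrix they were 3 and 11, and for noradrenergic markers 1 and 9. With the replicate block and the GC trend removed, edgeR called 0 genes in any list (3992 of all genes at an unadjusted p under 0.05).

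**Figure D4:**
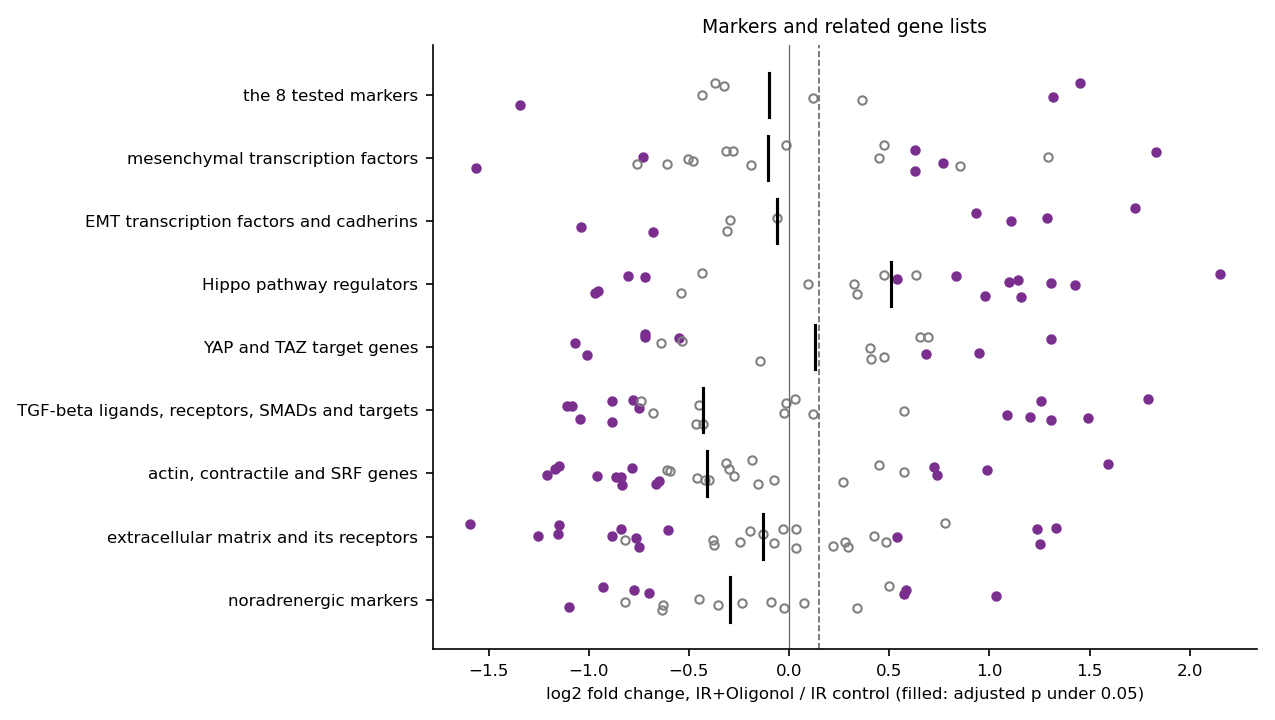
Log2 fold change (x axis) of each tested gene in the markers and in 8 related lists (y axis), filled where the adjusted p was under 0.05, with list medians as black bars and the median of all tested genes (0.15) as a dashed line. Each list has called genes on both sides of 0.

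In the Hippo pathway, whose kinases restrain YAP and TAZ, 9 of 20 tested genes rose and 4 fell (median 0.51, median GC 50.8%). The 13 called became 8, 3, 2, 4 and 2 without those libraries in turn. MOB1B, a coactivator of the LATS kinases, had a log2 fold change of 2.15, the kinase STK4 (MST1) 1.43, LATS1 0.98, and TEAD1 0.83. With the GC trend removed 2 were higher and 0 lower, among them MOB1B (1.45, adjusted p = 0.0374), which was called in 3 of the 9 settings that removed the trend. Of 16 tested YAP and TAZ target genes 3 rose and 5 fell (median 0.13, and 2 and 0 without the GC trend), the 8 called becoming 3, 1, 0, 1 and 1, with RBMS3 at 1.31, ASAP1 at 0.68, FJX1 at -1.07 and ARHGEF17 at -1.01. With the GC trend removed RBMS3 stood at 0.85 (adjusted p = 0.0418 by edgeR), but it was called in 2 of 9 such settings. With the GC of the longest transcript RBMS3 stood at 0.24 (adjusted p = 0.381). CCN2, a standard readout of YAP that was singled out after its values were seen, was too low for testing, at 0.0822 ± 0.0309 CPM in controls and 0.143 ± 0.0130 with Oligonol.

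Among TGF-beta ligands, receptors, SMADs and targets 6 of 23 tested genes rose and 7 fell (median -0.43, and 1 and 0 without the GC trend). The 13 called became 7, 6, 3, 4 and 4 without single libraries. TGFBR1, the type I receptor that TGF-beta 1 signals through, rose. Its mean was 1.39 ± 0.162 CPM in controls and 4.79 ± 0.193 with Oligonol, a change of 1.79 on the log2 scale (SE 0.18, adjusted p = 0.00601 by edgeR). With the GC trend removed TGFBR1 stood at 0.91 (adjusted p = 0.0393), and it was called in 2 of the 9 settings that removed the trend, against all 15 alternatives that did not. SMAD4 and SMAD2, which carry the signal to the nucleus, stood at 1.49 and 1.20, and FURIN, which cleaves the TGF-beta precursor, at -1.08. In EMT transcription factors and cadherins 4 of 9 rose and 2 fell (median -0.06, and 1 and 0 without the GC trend), the 6 called becoming 6, 3, 0, 4 and 3. ZEB1 rose from 1.41 ± 0.258 to 4.57 ± 1.47 CPM (1.73), and TCF4, ZEB2 and N-cadherin (CDH2) stood at 1.29, 1.11 and 0.94. These 4 are named by smallest p, and the 2 that fell are not among them. With the GC trend removed ZEB1, ZEB2 and CDH2 were not called by edgeR. TCF4 then stood at 0.90 (adjusted p = 0.0416 by edgeR), but this was its only call in 9 such settings. With the GC of the longest transcript TCF4 stood at 0.31 (adjusted p = 0.152 by edgeR). Of 18 tested mesenchymal transcription factors other than PRRX1, 4 rose and 2 fell (median -0.10, and 0 and 0 without the GC trend by edgeR), the 6 called becoming 3, 1, 0, 1 and 1, with ZNF217 at 1.83, ELK4 at 0.77, ETS1 at 0.63 and ID1 at -1.57.

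Of actin, contractile and SRF genes 4 of 28 rose and 10 fell (median -0.41, median GC 57.3%, and 1 and 1 without the GC trend). The 14 called became 6, 3, 2, 4 and 3 without single libraries. SRF itself fell (3.26 ± 0.234 CPM in controls, 1.42 ± 0.410 with Oligonol, log2 fold change -1.21) and smoothelin (SMTN) stood at -1.15, while the SRF coactivator MRTFB rose from 1.05 ± 0.243 to 3.19 ± 0.238 CPM (1.59) and non-muscle myosin MYH10 stood at 0.99. Without the GC trend MRTFB stood at 1.01 (adjusted p = 0.0353, called in 3 of 9 such settings) and SRF stood at -0.33 (adjusted p = 0.180). In the extracellular matrix and its receptors 4 of 29 rose and 9 fell (median -0.13, and 0 and 2 without the GC trend), the 13 called becoming 8, 5, 0, 4 and 3. The fibronectin-binding integrin chains ITGB1 and ITGAV rose (1.33 and 1.24), ITGB5 and the syndecan SDC1 fell (-1.15 each).

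Of noradrenergic markers 3 of 18 tested rose and 4 fell (median -0.29, and 2 and 0 without the GC trend). The split was 1 and 6 with RLE scaling and 3 and 8 by DESeq2, and the 7 called became 4, 2, 0, 2 and 1 without single libraries. SOX11, KLF7 and TFAP2B rose (1.03, 0.57 and 0.58), and TBX2, HAND1, CHGA and GATA2 fell (-1.10, -0.77, -0.93 and -0.70).

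Markers of other cell types were low, with exceptions. Of 6 endothelial markers 0 were tested, and their summed level was 0.449 to 0.705 CPM in controls and 0.306 to 0.405 with Oligonol, with TEK at 0 in all 6 libraries. Of 6 myeloid markers 1 was tested and not called by edgeR (summed 0.791 to 1.60 and 0.811 to 1.41 CPM), and PTPRC, which marks blood cells, was at most 0.0931 CPM. Of 8 Schwann and glial markers 2 were tested and ERBB3 rose (1.22, adjusted p = 0.0456), a call held in 6 of 14 alternatives that kept the GC trend and 1 of 9 that removed it, with FOXD3 at 0 in all libraries (summed 1.86 to 2.98 and 2.73 to 3.56 CPM). Of 9 fibroblast markers 5 were tested, PDGFRA rose (0.94) and THY1, PDGFRB and COL3A1 fell (-1.27, -0.67 and -0.60), with summed levels of 34.1 to 41.4 CPM in controls and 19.7 to 24.2 with Oligonol and POSTN at 0 in all libraries. The 4 fibroblast calls became 3, 2, 0, 1 and 0 without single libraries, in the order used above. With the GC trend removed edgeR called 0 fibroblast markers higher and 1 lower. Of 6 epithelial markers 3 were tested, and KRT18 and KRT19 fell (-0.99 and -1.53, summed 9.89 to 11.8 and 4.81 to 6.55 CPM). These 2 calls became 2, 1, 0, 0 and 0 without single libraries, and 0 by edgeR with the GC trend removed. The part of these cell-type levels in the marker changes was not tested.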

How the data were processed

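RNA was sequenced from 6 libraries of SH-SY5Y cells, 3 IR control and 3 IR+Oligonol. GRCh38.p13, FastQC, edgeR and kallisto 0.46.1 are named, without role or order, per the submitters' processing notes. The authors deposited 2 columns per library for 61860 genes, an estimated count and a scaled signal, where each deposited signal equalled that library's estimated count multiplied by 1 constant and was set aside. The step from transcripts to genes was not given in the sources used here. Estimated counts behaved as abundances per transcript length, so levels can be set beside each other between genes. Reads behind a value (read equivalents) were recovered by fitting, in each library, the fragment length and the worth of 1 read that made low single-transcript genes whole numbers. This left 66.8 to 69.7% of those values within 0.05 of a whole number.

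Estimated counts were rounded, and 16574 genes passed filterByExpr. After TMM scaling, groups were compared by the 2-sided robust quasi-likelihood test in edgeR 4.0.16 (R 4.3.3), with no covariate. Adjusted p-values are Benjamini-Hochberg over all tested genes with a threshold of 0.05, and standard errors (SE) are those implied by the test. The code was tested on simulated data. Levels are CPM after TMM scaling of the unrounded estimated counts, mean ± SD with n = 3. GENCODE release 29 gave transcript GC content and length (medians over a gene's transcripts), matched by identifier for 58308 genes. Alternatives were RLE, upper quartile and library-total scaling, protein-coding genes alone, DESeq2 1.42.0, limma-voom (limma 3.58.1), no filter, at least 10 estimated counts in all libraries, each library left out, a block on replicate number, and removal of each library's GC trend (a spline offset with 5 degrees of freedom, estimated from protein-coding genes). The GC of the longest transcript was added as an alternative after the data were seen. No outside check of the lists was made: the markers and the gene lists were chosen with earlier results of these data known. The text names all 10 markers, up to 4 called genes per list (by smallest p), 5 noradrenergic genes (PHOX2A, HAND2, GATA3, TH and DBH; 1 other that the rule named is not reported here), every called noradrenergic or other cell-type marker, and defining markers at or near 0.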

Additional observations from a re-analysis of the deposited data

How the results depend on the processing

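Over all genes, the number called moved from 8112 to 4567 with no filter, to 883 with the GC trend removed and to 1449 with the GC of the longest transcript. It ranged from 782 to 9492 when 1 library was left out, and from 0 to 490 when the GC trend was removed as well. Of the 10 markers, 3 were called as planned. Library totals alone called 6, all higher, where 11293 of 16574 genes were called higher and 37 lower. That scaling moved the median log2 fold change of all genes from 0.15 to 1.53. Under it FN1 stood at 0.98 (adjusted p = 0.00539), VIM at 0.99 (adjusted p = 0.00656) and TGFB1 at 0.95 (adjusted p = 0.107), the reverse of their direction under TMM. With the GC trend removed edgeR called 0 of 8 tested markers, of which 5 had an unadjusted p under 0.05. Of 16200 genes in that fit, 883 were called and 4447 had an unadjusted p under 0.05. Leaving out 1 library gave 0 to 4 called markers (0 without IR control replicate 3, where 3 had an unadjusted p under 0.05), and 0 to 1 when the GC trend was removed as well. Without IR control replicate 3, 782 of 20071 genes were called and 8500 had an unadjusted p under 0.05. The 4 markers were called without IR+Oligonol replicate 2, where 9492 of 20431 genes were called.

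Same-numbered libraries had correlations of 0.0870, -0.00874 and -0.147 in their deviations from the group means. Higher values were those of IR control replicate 3 with IR+Oligonol replicate 2 (0.191) and IR control replicate 1 with IR+Oligonol replicate 3 (0.146). With 3 libraries per group the deviations constrain one another, so whether the cultures were paired cannot be read from them. With the replicate block 7030 genes and the same 3 markers were called. With the replicate block and the GC trend removed edgeR called 0 genes and 0 markers, against 3992 genes and 4 markers at an unadjusted p under 0.05. Directions of single markers reversed as follows. SNAI2 stood at -0.77 with the GC trend removed, at -0.75 with the block added and at -0.68 with the GC of the longest transcript. Leaving out 1 library gave SNAI2 -0.14 (IR control replicate 2) to 0.20, negative also without IR+Oligonol replicate 2 (-0.04). With the GC trend removed as well, SNAI2 was -0.59, -1.001 and -0.698 without IR control replicates 1, 2 and 3, and -0.700, -0.857 and -0.735 without IR+Oligonol replicates 1, 2 and 3. TGFB1 stood at 0.36, 0.40 and 0.63 in the first 3 of these settings, and in the last at 0.69, 0.333 and 0.0663 without the control libraries in turn and 0.548, 0.282 and 0.185 without the Oligonol libraries. WWTR1 stood at -0.47 with the GC of the longest transcript, and at -0.13 (IR+Oligonol replicate 3) to 0.61 when 1 library was left out. The cause was not tested. Of 24 settings, CALD1 kept its call in 15 and TAGLN in 15, and CD44 in 10 of 23. In the count of called genes per list, 168 of 312 values lay more than 1.5 times from the planned one.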
